A study of Mus musculus with 24 samples.

Results

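The comparison described here set cells that carried an NFIA mutant against cells that carried full-length NFIA, both at day 7 of adipocyte differentiation. It took 6 of the 24 libraries, 3 labelled Cre_deltapro#3 (Δpro#3) and 3 labelled Cre_NFIA (full-length NFIA). The members were genes that reached an FPKM of 1 (reads divided by gene length in kilobases and by each library's total in units of 1000000) in 3 or more of these 6 libraries, which kept 11980 of 24825 genes. All cells descended from the stromal vascular fraction of mouse inguinal white fat (ingSVF), came from Nfia flox/flox mice and had been immortalised with the SV40 large T antigen. Both groups also expressed Cre recombinase from a retrovirus, which is meant to remove the floxed Nfia exon, and then a FLAG-tagged NFIA from a pMXs retrovirus, either full-length or without the pro#3 segment of the C-terminal proline-rich domain. Both were differentiated with isobutylmethylxanthine, indomethacin, dexamethasone, insulin, T3 and rosiglitazone, an agonist of PPARγ, followed by insulin, T3 and rosiglitazone. The day 7 libraries labelled Cre (no added NFIA) and ctrl (an empty retroviral vector in place of Cre), and the Δpro#3 and full-length NFIA cells at day 0, are given as background. The sources used here give neither the age of the mice nor whether the 3 replicates were separate cultures, so the p-values measure only the spread between these libraries, which may be technical.

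NFIA belongs to the nuclear factor I (NFI) family, whose members bind DNA as dimers through a conserved N-terminal domain and act on transcription through a variable C-terminal domain. White and brown adipocytes both arise from fibroblast-like precursors through PPARγ and C/EBPα, which switch on genes of lipid storage, insulin response and adipokine secretion while matrix and precursor genes are turned down. Thermogenic adipocytes add many mitochondria, fatty acid oxidation and, on adrenergic stimulation, heat production through UCP1.

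Totals of the 6 libraries were 11.67 to 14.62 M reads (M, 1000000), and 3 reads, the most that a count of 0 allows, were 0.205 to 0.257 reads per 1000000, for counting error only. Nfia itself (chr4:97439425-97868605) was at 111, 99.5 and 95 FPKM in the Δpro#3 libraries and at 97.1, 89 and 83.9 FPKM in the full-length NFIA libraries, so the groups overlapped (log2 difference 0.18, SE 0.0718, adjusted p = 0.0423, and 0.05 with adjusted p = 0.534 under median-of-ratios size factors). These values count reads of the transgene with those of the endogenous gene. Nfia was at 10.7, 10.1 and 9.49 FPKM in the libraries labelled Cre and at 9.81, 9.15 and 9.7 FPKM in ctrl, so the gene-level value does not check the Cre label. The paper checked the knockout by genomic PCR, RT-qPCR and western blot, and reports near-complete loss of NFIA in Cre cells. It also reports that the introduced full-length and Δpro#3 forms were expressed to a similar degree. As for the tissue label, adipocyte markers (Adipoq, Plin1, Cidec, Fabp4, Lep, Cfd, Pparg and Lpl) summed to 19945 to 20203 FPKM in full-length NFIA and to 818 to 2077 FPKM in Δpro#3, and markers of stromal precursors summed to 1048 to 1172 and 2580.4 to 3008 FPKM. Among the markers of other cell types, Myod1, Myf5, Myf6, Myh8 (skeletal muscle), Adgre1, C1qa (macrophage), Cldn5, Tie1 (endothelium), Kcnj8, Abcc9, Higd1b (pericyte) and Msln (mesothelium) were at 0 in all 6 libraries. Other members of these lists passed the filter, such as Tnnc2, Cd68, Kdr, Notch3 and Krt19, and the sums of the lists are given below.

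Genes of lipid storage and mitochondrial fuel use were lower in Δpro#3 than in full-length NFIA, with 13 of 15 lipid droplet and lipolysis genes and 21 of 25 fatty acid oxidation genes called lower. Genes of matrix and precursor function were higher, with 6 of 23 matrix enzymes and their inhibitors and 5 of 16 precursor markers called higher. The test was limma on log2(FPKM + 1), and called genes had to differ 3-fold or more on that scale with a p under 0.05 after Benjamini-Hochberg adjustment. By this rule 581 genes were lower in Δpro#3 (4.85% of those tested) and 294 were higher (2.45%). The 2 groups of libraries did not overlap in 579 of the lower and 293 of the higher genes. The calling rule itself makes such separation likely, so these 2 counts are a description. The median difference of the lower genes was -2.24 and that of the higher genes 1.80, and 87 lower genes but 1 higher gene passed 10-fold. By the adjusted p alone 4922 genes were higher (41.1%) and 3591 lower (30.0%). These were 4018 and 4360 when median-of-ratios size factors replaced the deposited scale. Under those factors 206 genes were called higher and 641 lower, so the number called higher depends on the scaling. That scaling moved the median difference of all genes by -0.112, from 0.095 to -0.017. The differences and list medians that follow are on the deposited scale, to be read against the 0.095 of all genes.

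**Figure D1:**
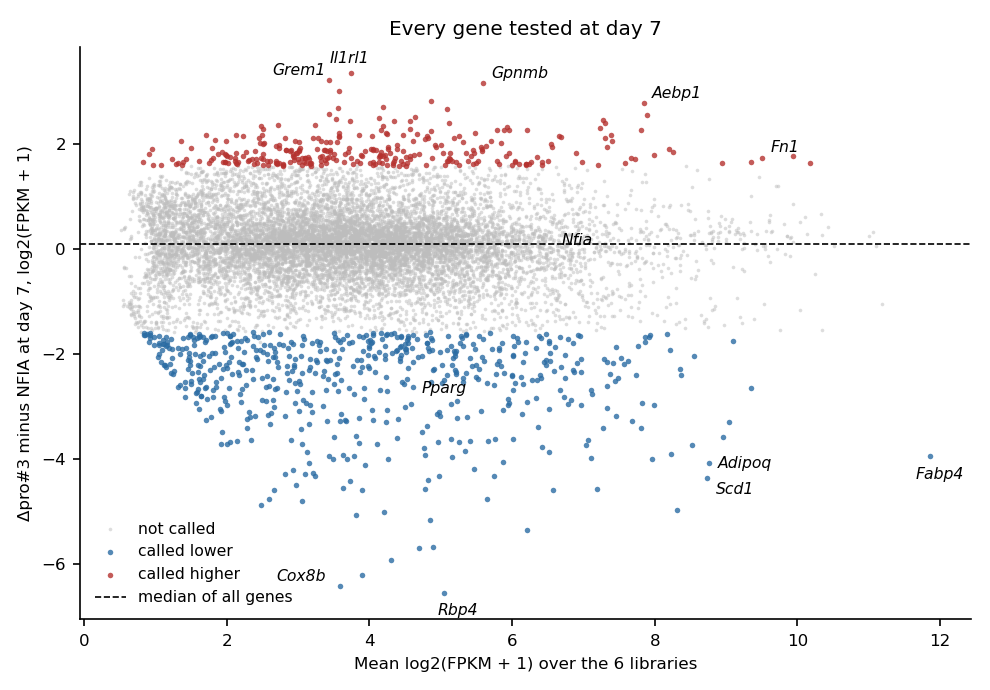
Every gene tested at day 7. The x axis is the mean log2(FPKM + 1) over the 6 libraries and the y axis the Δpro#3 minus full-length NFIA difference on the log2(FPKM + 1) scale. Blue points are the 581 genes called lower, red points the 294 called higher and grey points the rest, and the dashed line is the median of all genes (0.095). The lower genes reach -6.56 (Rbp4) and include highly expressed ones such as Fabp4, whereas the higher genes reach 3.36 (Il1rl1).

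The lower genes differed in their share of the reads by the choice that made them, and the share gives the size of the difference. Together they held 16.3, 16.2 and 16.4% of the reads in the full-length NFIA libraries and 1.89, 2.46 and 2.66% in Δpro#3, beside 5.42% ± 1.36 in Cre and 15.1% ± 1.02 in ctrl (mean ± SD, n = 3 each). The higher genes held 2.27, 2.16 and 2.43% in full-length NFIA and 8.70, 8.77 and 8.68% in Δpro#3, beside 6.94% ± 0.588 in Cre and 3.23% ± 0.345 in ctrl. For these chosen genes the Δpro#3 shares were nearer to those of Cre and the full-length NFIA shares nearer to those of ctrl. The choice itself sets Δpro#3 and full-length NFIA apart, so the shares do not place either group over all genes. Before differentiation the lower genes held 1.58% ± 0.0137 in full-length NFIA and 1.46% ± 0.0077 in Δpro#3 (n = 3), and the higher genes 8.60% ± 0.202 and 9.20% ± 0.0565. In bulk RNA, fewer cells of a type and less RNA per cell cannot be told apart.

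**Figure D2:**
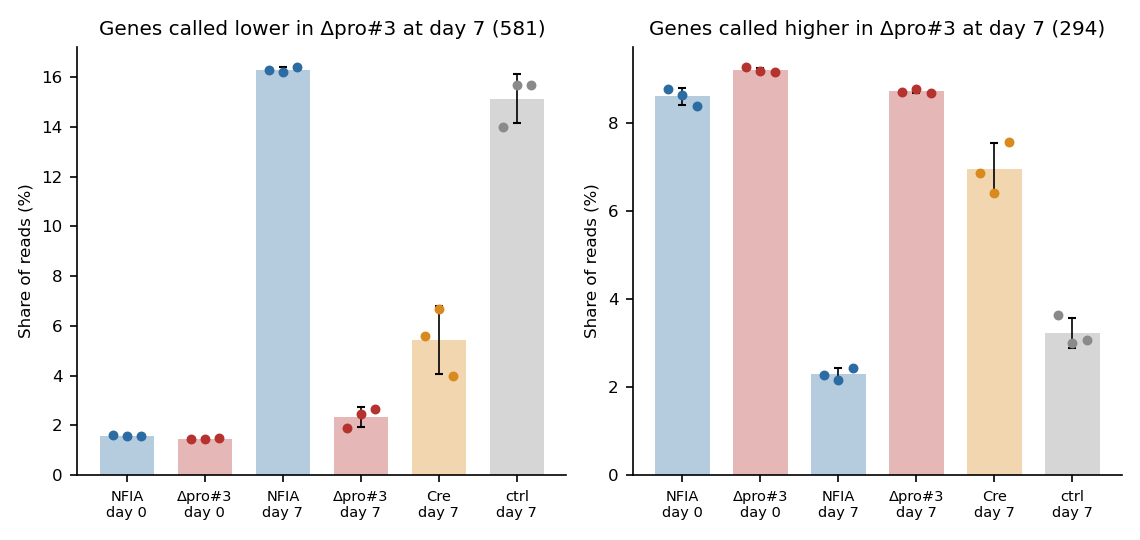
Share of all reads (%) held by the genes called lower (left, 581 genes) and higher (right, 294 genes) in Δpro#3 at day 7. Points are libraries, bars group means and whiskers SD (n = 3). The genes were chosen on the NFIA and Δpro#3 day 7 libraries, so the gap between these is given by the choice. The lower genes held 1.58% of reads at day 0 and 16.3% at day 7 in full-length NFIA, and 1.46 and 2.34% in Δpro#3, and the higher genes held 9.20 and 8.72% of the reads of Δpro#3 at the 2 days.

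Of the 13 genes the study is about, 9 passed the filter. Pparg (chr6:115311239-115440419), the master regulator of adipogenesis, was at 6.38, 9.29 and 11.4 FPKM in Δpro#3 and at 60.2, 63.2 and 56.5 FPKM in full-length NFIA (log2 difference -2.64, SE 0.183, adjusted p = 6.8e-08). Fabp4 (chr3:10204347-10208576), a fatty acid chaperone that PPARγ switches on, was at 494, 1271 and 1362 FPKM against 14491, 14714 and 14649 FPKM (log2 difference -3.94, SE 0.354, adjusted p = 6.3e-07). Replicate 1 of Δpro#3 was the lowest for both genes, yet every Δpro#3 library was below every full-length NFIA library. Ppara (chr15:85565413-85633249), which drives fatty acid oxidation, was at 0.307, 0.406 and 0.461 FPKM against 4.33, 4.72 and 4.52 FPKM (log2 difference -1.99, SE 0.12, adjusted p = 2.23e-08). Ppargc1a (chr5:51845488-51958964), a coactivator that promotes mitochondrial biogenesis, was at 0.091, 0.201 and 0.179 FPKM against 5.91, 6.13 and 5.55 FPKM (log2 difference -2.57, SE 0.122, adjusted p = 4.34e-09). Both are low genes on a scale that understates such changes, and with a pseudocount of 5 their differences (-0.82 and -1.07) no longer reached 3-fold. Ucp1, the uncoupling protein of brown fat, did not pass the filter, with 0.0521, 0 and 0 FPKM (1, 0 and 0 reads) in Δpro#3 and 0.815, 0.634 and 1.16 FPKM (18, 13 and 28 reads) in full-length NFIA. Klf5, Myod1 and Myog did not pass either, with at most 16 reads in any of the 6 libraries.

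Of the other NFI genes Nfib was called, and 0 were with a pseudocount of 5, where Nfib was at -1.42. Nfib (chr4:81936077-82351654) was at 0.946, 1.58 and 2.32 FPKM in Δpro#3 and 13.1, 13.4 and 11.7 FPKM in full-length NFIA (log2 difference -2.42, SE 0.17, adjusted p = 7.31e-08). Its level in ctrl was 15.3, 14.3 and 15.9 FPKM and in Cre 4.67, 5.85 and 3.73 FPKM, so the Δpro#3 libraries were the lowest of the 4 groups. Nfix (chr8:87223775-87324243) was at 62.4, 65.2 and 65.4 FPKM against 32, 32.3 and 32.6 FPKM (log2 difference 0.97, SE 0.0552, adjusted p = 1.45e-08), which passed the p threshold but not 3-fold. Nfic was at 62.4, 69.2 and 66.8 FPKM against 61.5, 58.1 and 58.9 FPKM (log2 difference 0.15, adjusted p = 0.0249, and 0.03 with adjusted p = 0.716 under median-of-ratios size factors). Myl9 (chr2:156601156-156607394), a light chain of smooth muscle myosin, was at 77.5, 80.8 and 68.1 FPKM against 23.5, 23.2 and 28.6 FPKM, a difference of 1.55 (adjusted p = 5.74e-08) just under the 3-fold limit. It passed that limit with a pseudocount of 0.1 (1.59), without replicate 3 of full-length NFIA (1.65) and without replicate 3 of Δpro#3 (1.62).

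**Figure D3:**
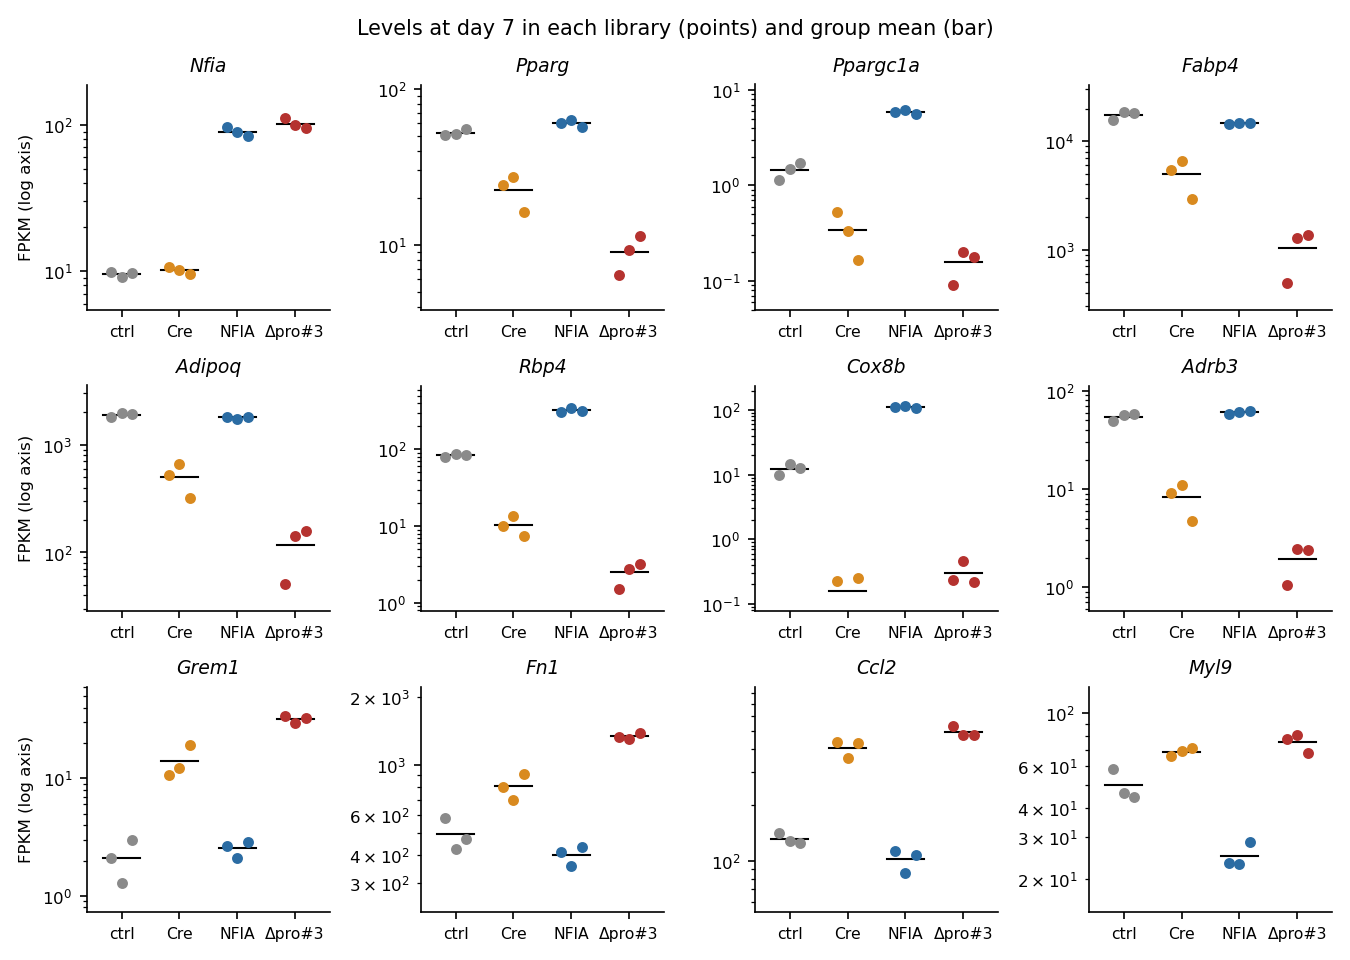
FPKM (log axis) of 12 genes in each day 7 library of ctrl, Cre, full-length NFIA and Δpro#3. Points are libraries and bars group means (n = 3); the 1 Cre library at 0 for Cox8b has no point. Pparg, Fabp4, Adipoq, Rbp4 and Adrb3 are lowest in Δpro#3 and Grem1, Fn1 and Ccl2 highest, and replicate 1 of Δpro#3 lies below its partners in the adipocyte genes (51.1 FPKM for Adipoq, against 141 and 158 FPKM).

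Secreted products of fat cells were among the largest differences. Rbp4 (chr19:38191110-38199811), the retinol carrier of blood, was at 1.52, 2.74 and 3.22 FPKM in Δpro#3 and 307, 346 and 313 FPKM in full-length NFIA (log2 difference -6.56, SE 0.196, adjusted p = 3.38e-10). Retn (chr8:3655770-3660110), which encodes resistin, was at 5.6, 14.1 and 14.2 FPKM against 488, 495 and 440.3 FPKM (log2 difference -5.37, SE 0.348, adjusted p = 3.86e-08). Adipoq (chr16:23146609-23158101), which encodes adiponectin, was at 51.1, 141 and 158 FPKM against 1811, 1725 and 1821 FPKM (log2 difference -4.08, SE 0.349, adjusted p = 4.05e-07). Each of these genes was 10-fold or more apart between the groups, and Rbp4 stood at 78.8, 87.9 and 84.8 FPKM in ctrl, so its full-length NFIA level was above that of ctrl as well. Cfd, adipsin, was at 3.81, 11.1 and 11.4 FPKM against 146, 132 and 143 FPKM (log2 difference -3.98, adjusted p = 4.72e-07). In the list of adipokines 8 of 14 tested members were called lower and 0 higher (median -1.86). Metrnl, a secreted protein of muscle and fat, was higher, at 18.9, 15.8 and 14.3 FPKM in Δpro#3 and 4.49, 5.43 and 5.1 FPKM in full-length NFIA (1.52, adjusted p = 7.48e-08). It was not called on the log2(FPKM + 1) scale, but passed 3-fold with a pseudocount of 0.1 (1.68), with voom (1.70) and without replicate 3 of Δpro#3 (1.61).

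The other lower genes with the largest differences had mixed roles. Cox8b (chr7:148084842-148086345), a respiratory chain subunit of muscle and brown fat, was at 0.236, 0.455 and 0.217 FPKM in Δpro#3, at most 2 reads in a library, and at 109.7, 115 and 107 FPKM in full-length NFIA (log2 difference -6.42, SE 0.128, adjusted p = 3.16e-11). Its level was 9.87, 14.4 and 12.7 FPKM in ctrl, and its fitted difference depends on the pseudocount and is not a bound. Ces1d (chr8:95689967-95721737), a carboxylesterase that hydrolyses triglycerides, was at 0.741, 2.1 and 2 FPKM against 151, 157 and 151 FPKM (-5.93, adjusted p = 1.34e-09). Wfdc21 (-6.22), Cbr2 (carbonyl reductase, -5.70), Ppp1r1a (an inhibitor of protein phosphatase 1, -5.68), Orm1 (an acute phase protein, -5.17) and Ephx2 (soluble epoxide hydrolase, -5.07) completed this group, with Δpro#3 levels of at most 1.87, 5.73 and 4.76 FPKM, those of Orm1, and full-length NFIA levels of at least 79.6 FPKM. Their adjusted p ran from 1.33e-10 (Cbr2) to 5.54e-08 (Orm1).

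Promoter sequence is shown for a few called genes whose windows held a motif match, to set their letters beside their direction. RefSeq (GRCm38.p6) holds windows from 250 bases before to 50 after the start for 415 of the 581 lower genes, 211 of the 294 higher genes and 9210 of all tested. The 6-letter motif TTGGCA, 1 arm of the NFI palindrome with the A that often follows it, was searched on both strands. It was in a window of 80 lower genes (19.3%), 35 higher genes (16.6%) and 1218 of all (13.2%). The whole NFI palindrome (TTGGC and GCCAA with 5 bases between them) was in windows of 0 lower and 0 higher genes and of 4 of all tested, and the direct repeat bound by PPARγ and RXR (AGGTCA repeated with 1 base between the copies) in 0, 0 and 3. The CArG box of SRF was in windows of 9 lower (2.17%), 6 higher (2.84%) and 148 of all (1.61%), and GGAATG, the core that TEAD factors bind, in 16.1, 16.6 and 13.9%. A match is a description of letters and not a bound site. Only windows with a match are printed, so they do not represent the named genes. Of other named lower genes, Thrsp, Mlxipl and Rxrg held TTGGCA in a window, and Retn, Adipoq, Ppara, Ppargc1a and Cd36 did not. The 250 bases before the RefSeq start are given for Rbp4 (chr19:38199812-38200061, minus strand), Cox8b (chr7:148086346-148086595, minus strand) and the most downstream of 3 Pparg starts (chr6:115371834-115372083, plus strand), which were lower, and Aqp1 (chr6:55286043-55286292, plus strand), which was higher, with TTGGCA or its complement in capitals. A second Rbp4 window and the other 2 Pparg windows held no match in those bases. For Cnn2 (chr10:79451095-79451344, plus strand) and 1 of 2 Fhl2 starts (chr1:43220807-43221056, minus strand), which were higher, the capitals mark the CArG box, and the other Fhl2 window held one too. Positions are on mm9, found by exact match of the RefSeq sequence.
Rbp4: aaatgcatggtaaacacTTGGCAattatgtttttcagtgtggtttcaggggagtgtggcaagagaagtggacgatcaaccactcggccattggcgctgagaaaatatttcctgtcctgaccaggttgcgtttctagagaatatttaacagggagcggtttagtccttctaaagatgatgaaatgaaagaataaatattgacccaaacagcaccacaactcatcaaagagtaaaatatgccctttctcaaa
Cox8b: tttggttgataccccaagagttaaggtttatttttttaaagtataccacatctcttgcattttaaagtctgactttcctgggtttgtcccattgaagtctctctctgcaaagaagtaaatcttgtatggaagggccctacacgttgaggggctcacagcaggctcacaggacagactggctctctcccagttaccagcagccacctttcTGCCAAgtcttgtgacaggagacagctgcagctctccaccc
Pparg: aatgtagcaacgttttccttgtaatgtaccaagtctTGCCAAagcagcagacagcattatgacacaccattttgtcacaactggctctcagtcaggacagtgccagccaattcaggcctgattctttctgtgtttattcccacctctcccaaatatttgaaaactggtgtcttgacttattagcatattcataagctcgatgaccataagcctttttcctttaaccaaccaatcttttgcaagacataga
Aqp1: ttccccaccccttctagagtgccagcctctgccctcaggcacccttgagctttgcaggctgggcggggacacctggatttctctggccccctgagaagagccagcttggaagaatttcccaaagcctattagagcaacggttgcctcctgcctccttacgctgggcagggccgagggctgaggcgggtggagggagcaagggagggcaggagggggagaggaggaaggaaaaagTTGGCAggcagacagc
Cnn2: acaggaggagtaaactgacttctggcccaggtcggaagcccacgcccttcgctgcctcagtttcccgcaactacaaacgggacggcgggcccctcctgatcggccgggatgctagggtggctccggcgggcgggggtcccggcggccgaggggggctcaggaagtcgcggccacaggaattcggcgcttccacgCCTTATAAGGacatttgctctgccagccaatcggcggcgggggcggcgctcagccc
Fhl2: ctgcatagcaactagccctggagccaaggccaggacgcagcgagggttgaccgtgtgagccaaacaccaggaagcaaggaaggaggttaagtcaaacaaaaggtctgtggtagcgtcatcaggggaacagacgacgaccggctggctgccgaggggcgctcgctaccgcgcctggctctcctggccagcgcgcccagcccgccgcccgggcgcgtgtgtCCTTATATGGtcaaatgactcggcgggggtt
The motif lies 233 bases before the start in Rbp4, 41 in Cox8b, 214 in Pparg and 16 in Aqp1, and the CArG box 56 bases before the start in Cnn2 and 31 in Fhl2.

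Transcription factors of adipogenesis were lower in part. Of 16 tested, 6 were called lower, 10 were lower by the adjusted p alone and 2 were higher (median -0.95). Cebpa, the partner of PPARγ, was at 16.8, 29.1 and 29.5 FPKM in Δpro#3 and 159.7, 167 and 162 FPKM in full-length NFIA (-2.69, adjusted p = 1.85e-07). Mlxipl, the carbohydrate-responsive factor ChREBP, was at 1.11, 2.98 and 3.18 FPKM against 37.2, 38.9 and 38.6 FPKM (-3.58, adjusted p = 4.92e-07). Nr1h3 (LXRα), Rxrg and Srebf1 were called lower, with differences of -3.37, -3.09 and -2.69. Cebpd, an early factor of the cascade, was higher, at 7.51, 12 and 8.72 FPKM against 3.79, 4.19 and 4.15 FPKM (1.02, adjusted p = 1.68e-05) and Klf9 was higher by 0.49. A further list was named for factors that hold precursors back, a role that was not tested here and may not apply to each member. Of its 15 tested genes 14 were higher by the adjusted p and 0 lower (median 0.95). The 1 called was Snai2, a zinc finger repressor, at 58.4, 54.8 and 65.7 FPKM against 14.5, 14 and 14.2 FPKM (1.99, adjusted p = 1.58e-08). Hes1, a Notch target, was at 3.96, 5.01 and 3.8 FPKM against 5.44, 4.75 and 4.24 FPKM (adjusted p = 0.277).

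Lipid storage and release genes were mostly called lower. In the list of lipid droplet and lipolysis genes 13 of 15 were called lower (median -3.63). Cidec, a droplet-fusing protein, was at 52.5, 128 and 146 FPKM in Δpro#3 and 1379, 1262 and 1367 FPKM in full-length NFIA (-3.73). The lipases Pnpla3, Pnpla2 and Lipe and the lipase inhibitor G0s2 differed by -4.81, -3.73, -3.77 and -3.91, with Pnpla2 at 19.6, 46.2 and 47.5 FPKM against 508, 447 and 486 FPKM. Plin3, a droplet coat protein found in many cell types, was higher at 42.2, 47.4 and 42.2 FPKM against 37.1, 33.6 and 35.4 FPKM (0.30, adjusted p = 0.002, and 0.18 with adjusted p = 0.0602 under median-of-ratios size factors). Of 14 triglyceride synthesis genes 11 were called lower (median -2.75). Gpd1, which makes glycerol 3-phosphate, was at 28.1, 73.1 and 85.1 FPKM against 1782, 1727 and 1846 FPKM (-4.97, SE 0.355, adjusted p = 8.56e-08). Pck1 of glyceroneogenesis, Dgat2 and Agpat2 differed by -4.50, -4.06 and -4.01, and the phosphatidate phosphatase Lpin2 by 0.60 in the other direction (adjusted p = 1.3e-05).

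Uptake and synthesis of fatty acids were lower as well. Of 15 uptake and binding genes 10 were called lower (median -2.47). Cd36, the fatty acid translocase, was at 14.4, 33.6 and 48.7 FPKM against 688, 736 and 711 FPKM (-4.58, SE 0.335, adjusted p = 1.02e-07). Lpl, which frees fatty acids from lipoproteins, was at 193, 275 and 332 FPKM against 1624, 1598 and 1681 FPKM (-2.65). Fabp5 and the acyl-CoA binder Dbi differed by -3.58 and -3.29. Acsl4 and Vldlr of the same list were higher, by 0.66 and 0.35 (adjusted p = 0.000166 and 0.00915). Of 16 synthesis genes 10 were called lower (median -2.36). Scd1, the stearoyl-CoA desaturase, was at 74.5, 90.2 and 119.5 FPKM against 1862, 1977 and 1977 FPKM (-4.37, SE 0.233, adjusted p = 9.38e-09). Thrsp, a lipogenic regulator, was at 0.855, 3.08 and 3.43 FPKM against 102, 106 and 104 FPKM (-5.02), and Elovl3 and Acss2 differed by -3.86 and -3.63. Elovl6 was at 8.87, 8.03 and 8.4 FPKM against 6.53, 7.05 and 7.14 FPKM (adjusted p = 0.0662).

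Insulin and adrenergic response genes were split. Slc2a4, the insulin-regulated glucose transporter GLUT4, was at 0.998, 2.77 and 3.23 FPKM in Δpro#3 and 46.2, 49.2 and 46.5 FPKM in full-length NFIA (-3.93, adjusted p = 7.31e-08), whereas Slc2a1, the ubiquitous GLUT1, was at 45.6, 46.7 and 45.6 FPKM against 17.4, 20.3 and 20 FPKM (1.22, adjusted p = 1.23e-07). Pde3b and Tbc1d4 were called lower (-2.22 and -2.20), and the kinase gene Akt1 was higher by 0.89 without reaching 3-fold. In all, 5 of 16 insulin signalling genes were called lower and 0 higher (median -0.89). Adrb3, the β3-adrenergic receptor of adipocytes, was at 1.04, 2.43 and 2.4 FPKM against 58.8, 61.1 and 61.8 FPKM (-4.42, SE 0.244, adjusted p = 1.18e-08), and Prkar2b, a regulatory subunit of protein kinase A, differed by -2.21. The cAMP phosphodiesterases Pde4b and Pde4d were higher by 1.26 and 1.24 and not called, and 3 of 14 genes of that list were called lower (median -0.30).

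Thermogenic genes were mostly lower. Of 18 tested members 10 were called lower and 1 higher (median -1.63). Besides Cox8b and Ppargc1a these included Cox7a1 at 0.702, 1.81 and 0.861 FPKM against 13, 14.7 and 15.3 FPKM (-2.89) and the potassium channel Kcnk3 at 0.922, 2.45 and 3.45 FPKM against 20.5, 22.6 and 21.9 FPKM (-2.87). Elovl3, named with the fatty acid genes, is on this list too, at 0.821, 1.36 and 1.8 FPKM against 29.5, 32.8 and 35 FPKM. The creatine transporter Slc6a8 was called higher, at 60, 58.9 and 64.3 FPKM against 16, 15.3 and 17.7 FPKM (1.84, adjusted p = 1.78e-09), and Zic1, a marker of classical brown fat, was at 3.02, 3.82 and 3.39 FPKM against 1.11, 1.2 and 0.98 FPKM (1.07, adjusted p = 8.02e-07). Cidea and Dio2, further markers of thermogenic fat, did not pass the filter, with Cidea at 0.256, 0.482 and 0.646 FPKM (4, 7 and 11 reads) in full-length NFIA and at 0 in Δpro#3.

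Mitochondrial genes were lower across whole lists, with smaller medians than the lipid droplet list. All 25 tested fatty acid oxidation genes were lower by the adjusted p and 21 were called (median -2.21). Acaa1b, a peroxisomal thiolase, was at 4.06, 4.51 and 5.34 FPKM against 121, 130.4 and 147 FPKM (-4.57). Acadm and Acadl, dehydrogenases of medium and long acyl chains, and Pex11a of the peroxisome differed by -2.95, -2.83 and -2.95. All 23 tested genes of the TCA cycle and pyruvate entry were lower by the adjusted p and 9 were called (median -1.45). Pcx, pyruvate carboxylase, was at 44.5, 80.6 and 88.1 FPKM against 747, 703 and 744 FPKM (-3.40), and the mitochondrial pyruvate carrier genes Mpc1 and Mpc2 and Idh3a differed by -2.59, -2.61 and -2.49. All 52 tested respiratory chain genes were lower by the adjusted p, with 7 called and a median of -1.21, and their summed level was 7796 to 8655 FPKM in Δpro#3 and 19545 to 19767 FPKM in full-length NFIA. Cycs, cytochrome c, was at 24, 27.1 and 24.4 FPKM against 129, 139 and 133 FPKM (-2.36), and Atp5g3, Uqcrfs1 and Uqcrc2 differed by -1.76, -1.80 and -1.77.

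Amino acid and sterol metabolism were lower, with exceptions at single enzymes. In branched-chain amino acid catabolism 10 of 21 genes were called lower (median -1.57), among them Acat1 (-2.23), Echs1 (-2.14), Bckdhb (-2.14) and Hibch (-2.02). Bcat1, the cytosolic transaminase, was at 9.42, 8.37 and 7.39 FPKM in Δpro#3 and 2.23, 2.59 and 2.68 FPKM in full-length NFIA (1.42, adjusted p = 2.85e-07), and Acadsb did not pass (adjusted p = 0.191). In cholesterol synthesis 10 of 22 were called lower (median -1.23), with Insig1, a sterol sensor, at 39.8, 61.1 and 77.3 FPKM against 510.1, 546 and 526 FPKM (-3.18). Pmvk, Nsdhl and Lss differed by -2.91, -2.48 and -2.30, while Srebf2, the factor that drives the pathway, was at 55.7, 56.3 and 52.6 FPKM against 53.3, 50.3 and 52.5 FPKM (adjusted p = 0.208). In glycolysis 11 of 16 genes were lower and 4 higher by the adjusted p (median -0.45), with 0 called lower and 1 higher. The gene called was hexokinase Hk1, at 59.3, 60 and 62.7 FPKM against 17.4, 18.2 and 18.8 FPKM (1.69, adjusted p = 1.34e-09). With median-of-ratios size factors Hk1 was at 1.57, which left 0 calls upward and gave 1 downward, and its call was also lost with a pseudocount of 5 (1.5). Pfkp, a phosphofructokinase, was higher by 0.56.

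The 10 genes with the largest differences upward included receptors, secreted proteins and matrix proteins. Il1rl1 (chr1:40486415-40522260), the interleukin 33 receptor ST2, was at 46.7, 36.6 and 42.9 FPKM in Δpro#3 and 2.76, 3.41 and 3.37 FPKM in full-length NFIA (log2 difference 3.36, SE 0.156, adjusted p = 4e-09). Grem1 (chr2:113586321-113598803), a secreted BMP antagonist, was at 34.2, 29.7 and 32.7 FPKM against 2.68, 2.1 and 2.88 FPKM (log2 difference 3.23, SE 0.213, adjusted p = 4.4e-08). Gpnmb (chr6:48986517-49020928), a transmembrane glycoprotein, was at 147, 138 and 147 FPKM against 16.5, 13.2 and 15.7 FPKM (log2 difference 3.17, SE 0.115, adjusted p = 9.32e-10). The spread of these genes over replicates was small beside the gap, but the naming rule took only called genes whose groups did not overlap. Their separation is thus given by the choice. Aebp1 (chr11:5761950-5772091), the matrix protein ACLP that opposes adipogenesis, was at 591, 604 and 614 FPKM against 90.7, 75.4 and 94.9 FPKM (2.79). Slc6a17, Prl2c2, Abi3bp, Srpx2, Lrrc32 (GARP, which anchors latent TGF-β) and Aqp1 (a water channel, promoter given above) made up the rest, with differences of 3.03, 2.82, 2.71, 2.69, 2.68 and 2.59. Prl2c2 belongs to a family of near-identical genes, so its value is uncertain.

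The most abundant higher genes were S100a6 and S100a4, calcium-binding proteins, with 2220.4, 2166 and 1794 FPKM against 615, 641 and 724 FPKM and 2044, 1865 and 1580.1 FPKM against 479, 518 and 589 FPKM. Fn1, fibronectin, was at 1326, 1304 and 1381 FPKM against 409, 356 and 430 FPKM (1.75), Pcolce, an enhancer of procollagen processing, at 1160.3, 1214 and 1089.9 FPKM against 368, 349.8 and 379 FPKM (1.66), and Col1a1 at 879, 943 and 790.3 FPKM against 256, 277 and 304 FPKM (1.64). With median-of-ratios size factors S100a6 (1.51), Pcolce (1.53) and Col1a1 (1.51) stayed past the p threshold but were below 3-fold. In the matrix lists 5 of 26 glycoproteins and proteoglycans were called higher and 1 lower (median 1.19), and 6 of 23 matrix enzymes and their inhibitors higher (median 1.41). Thbs2 and Thbs1, the thrombospondins, were at 578, 565 and 588 FPKM against 95.3, 89.8 and 107 FPKM and 349.9, 362 and 352 FPKM against 78.9, 73.6 and 78.9 FPKM. Vcan, Mmp14, Mmp11, Timp2 and Timp1 differed by 2.03, 2.12, 1.86, 2.07 and 1.95. Eln, elastin, and Adamts12 were lower and not called, with differences of -0.60 and -0.51.

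Collagens went both ways. Of 19 tested 4 were called higher (1 with median-of-ratios size factors) and 1 lower, and by the adjusted p alone 11 were higher and 5 lower (median 0.90). Over all genes 2.45% were called higher and 4.85% lower, and 41.1% and 30.0% by the adjusted p alone. The lower counts of this list are thus near those shares. Col12a1, a fibril-associated collagen, was at 76.7, 82.4 and 78.8 FPKM in Δpro#3 and 17.4, 18.4 and 19.8 FPKM in full-length NFIA (2.04), and Col5a2 was higher by 1.65 (1.53 and not called with median-of-ratios size factors). Col15a1, a collagen of the basement membrane zone, was at 13.1, 22 and 24.2 FPKM against 166, 158 and 180.3 FPKM (-3.06, adjusted p = 2.4e-08), and Lama4, a laminin chain of the basement membrane, at 20.1, 24 and 22.4 FPKM against 86.3, 84.1 and 86.7 FPKM (-1.91). Col5a3 was lower and not called, with a difference of -1.39.

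Contractile and precursor genes were higher in part. Of 15 contractile genes 3 were called higher (median 1.32). Acta2, smooth muscle actin, was at 262, 279.6 and 228 FPKM against 75.5, 85 and 90.4 FPKM (1.61, and 1.48 and not called with median-of-ratios size factors). The calponins Cnn1 and Cnn2 differed by 2.04 and 1.96, whereas Mylk and Myh11, of mature smooth muscle, were lower and not called, with -0.71 and -0.70. Of 18 YAP and SRF targets 6 were called higher (4 with median-of-ratios size factors) and 1 lower (median 1.04), with Ctgf, connective tissue growth factor, at 58, 62.1 and 56.4 FPKM against 9.45, 10.1 and 8.83 FPKM (2.52). Fhl2, Ptx3 and Axl differed by 2.27, 2.16 and 1.77. Dlc1 differed by -1.65 (-1.55 and not called without replicate 1 of Δpro#3), and Nt5e by -0.75, not called. Cnn2 and Fhl2 are the genes whose CArG boxes were given above, and Myl9 held such a box too. Acta2, Cnn1, Ptx3 and Axl of the same lists held none in their windows, and Cbr2, called lower, held a CArG box. Of 16 precursor markers 5 were called higher, 3 with median-of-ratios size factors (median 1.38), among them Cd9 (2.21), Anxa3 (2.01), and the PDGF receptors Pdgfrb at 93.1, 91.9 and 91.4 FPKM against 23, 21.7 and 25.1 FPKM (1.94) and Pdgfra at 58.9, 54.5 and 66.3 FPKM against 18.5, 16.3 and 19.2 FPKM (1.68, and 1.56 and not called with median-of-ratios size factors). Clec3b, by contrast, was at 9.24, 14.6 and 12.6 FPKM against 21.7, 17.1 and 16.2 FPKM (-0.57, adjusted p = 0.00463), and Fap did not pass (adjusted p = 0.607).

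Of the signalling lists TGF-β and BMP and Wnt held genes called in both directions, and the IGF system in 1 direction. Over all genes 2.45% were called higher and 4.85% lower, so 1 lower call in a list of this size is near that share. In TGF-β and BMP signalling 5 of 26 genes were called higher (3 with median-of-ratios size factors) and 1 lower (median 0.99). Tgfbr2, a TGF-β receptor, was at 35.9, 37.7 and 36.6 FPKM against 10, 9.99 and 10.8 FPKM (1.74). The BMP antagonist Chrdl1 was at 0.493, 1.24 and 1.22 FPKM against 9.08, 9.84 and 9.04 FPKM (-2.40), and the ligand Bmp4 at 0.416, 0.562 and 0.153 FPKM against 2.71, 2.03 and 2.42 FPKM (-1.30, adjusted p = 3.23e-06), below 3-fold on this scale. In the Wnt list 2 of 19 were called higher, the secreted inhibitors Sfrp1 at 156, 157 and 175 FPKM against 34.5, 28.6 and 35.8 FPKM (2.27) and Sfrp4 (2.38). Fzd4, a Wnt receptor, was called lower at 1.63, 1.95 and 2.74 FPKM against 16.8, 15.8 and 16.7 FPKM (-2.50), and Wnt11 differed by -0.78 and was not called. In the IGF system the binding proteins Igfbp2 and Igfbp3 were called higher (2.49 and 2.16), and Igfbp5 and Igfbp4 were lower and not called (-1.23 and -0.75), so that 2 of 10 genes were called.

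Chemokine genes were higher in part, while the complement and interferon lists held 1 call between them. Of 16 chemokine and cytokine genes 6 were called higher and 0 lower (median 1.00). Ccl2 and Ccl7, which attract monocytes, were at 530.3, 479 and 478 FPKM against 112, 86.2 and 107 FPKM (2.28) and 379, 355 and 363 FPKM against 66.4, 64.3 and 64.7 FPKM (2.47), and Cxcl5 differed by 1.93. In the complement list Cfd was the 1 gene called, and C3 was at 62.6, 76.6 and 86.2 FPKM against 197, 168 and 185 FPKM (-1.29, adjusted p = 8.19e-07). Of 26 interferon-stimulated genes 0 were called, with a median of 0.48, and 21 were higher by the adjusted p (16 with median-of-ratios size factors). Of 14 angiogenic genes 4 were called higher and 3 lower. Nos3, endothelial nitric oxide synthase, was at 0.0624, 0.441 and 0.382 FPKM against 30.4, 29.2 and 31 FPKM (-4.60) and Angptl4, an inhibitor of lipoprotein lipase, at 37.3, 51.2 and 52 FPKM against 506, 493 and 518 FPKM (-3.42). The growth factors Ptn and Vegfd were higher by 2.41 and 2.14. Pecam1, a defining endothelial gene, was at 0.0514, 0.0496 and 0.0946 FPKM (2, 2 and 4 reads) in Δpro#3 and 0.268, 0.337 and 0.39 FPKM (12, 14 and 19 reads) in full-length NFIA, and Cldn5 and Tie1 were at 0. The endothelial markers that passed the filter, Kdr, Tek and Egfl7, went the other way, with differences of 1.03, 0.36 and 0.12. The whole endothelial list summed to 7.06 to 7.32 FPKM in Δpro#3 and 3.91 to 4.66 FPKM in full-length NFIA. The part of endothelial cells in the Nos3 difference was not tested.

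Cell cycle and ribosomal protein genes had no call by the adjusted p and 3-fold rule. The 26 cell cycle genes had a median of 0.05, which was -0.06 with median-of-ratios size factors, and summed to 1462 to 1551 FPKM in Δpro#3 and 1431 to 1499 FPKM in full-length NFIA. Ccne2 and Ccne1, cyclins of the entry into DNA synthesis, were lower, with -0.93 and -0.59 (adjusted p = 4.27e-06 and 1.49e-05). The 33 cytosolic ribosomal protein genes had a median of 0.30 (0.17 with median-of-ratios size factors), with Rplp2 at -0.34.

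**Figure D4:**
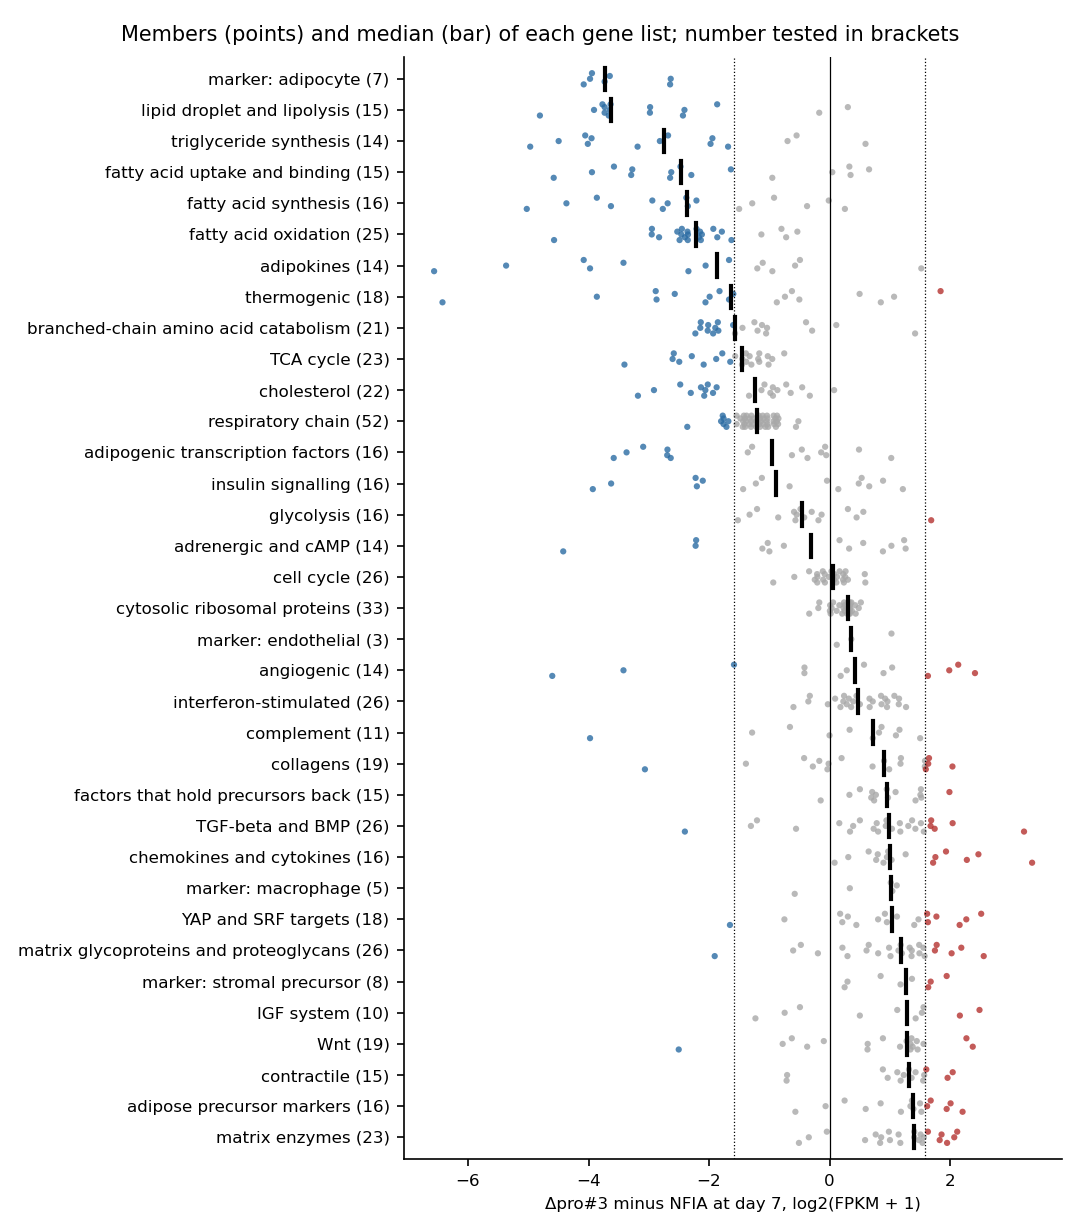
Day 7 difference (Δpro#3 minus full-length NFIA, log2(FPKM + 1)) of each tested member of 35 gene lists. Points are genes, blue and red past 3-fold (dotted lines), black bars list medians, and the number in brackets is the number tested. Medians run from -3.73 for the adipocyte markers to 1.41 for the matrix enzymes, with the cell cycle list at 0.05.

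Lists of other cell types had few expressed members. Of 14 skeletal muscle markers 2 passed the filter, and 1 was called, Tnnc2, the fast troponin C, at 0, 0 and 0.342 FPKM in Δpro#3, 14.1, 14.1 and 12.3 FPKM in full-length NFIA and 3.88, 5.92 and 4.91 FPKM in ctrl (-3.71, adjusted p = 3.62e-09). The summed level of that list was 3.05 to 4.82 FPKM against 18.8 to 21.5 FPKM, most of the latter from Tnnc2. Acta1, which also passed the filter, differed by -1.08. Des, below the filter, went the other way, at 0.895, 1.51 and 1.34 FPKM against 0.559, 0.654 and 0.736 FPKM. Macrophage markers summed to 13.6 to 15.1 FPKM against 7.48 to 8.91 FPKM, and endothelial markers to 7.06 to 7.32 FPKM against 3.91 to 4.66 FPKM. Pericyte markers summed to 13.6 to 16.8 FPKM against 8.12 to 8.94 FPKM, nearly all of it Notch3 at 12.8, 16.1 and 14.7 FPKM against 6.62, 6.41 and 7.38 FPKM. Mesothelial markers summed to 5.89 to 8.48 FPKM against 5.9 to 8.31 FPKM and Schwann cell markers to 1.93 to 2.27 FPKM against 4.18 to 4.38 FPKM. The part of such cells in the other differences was not tested.

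Far fewer of the tested genes were called before differentiation. They had been filtered on the day 7 libraries, so genes expressed at day 0 alone were not tested. At day 0, 2 of the same genes were called higher (0.0167%) and 16 lower (0.134%) in Δpro#3, and 1227 passed the adjusted p alone (10.2%). Among the 581 genes lower at day 7, the median day 0 difference was -0.03, and 4 were already called lower at day 0: Cebpa, Rgs2, Serpina3c and Wfdc21. By the adjusted p alone 71 of the 581 were lower and 10 higher at day 0. Cebpa was then at 5.68, 4.72 and 5.34 FPKM in Δpro#3 and 19.5, 21.9 and 20.4 FPKM in full-length NFIA (-1.79, adjusted p = 2.62e-06), and Pparg at 2.52, 3.12 and 2.39 FPKM against 4.89, 7.25 and 6.51 FPKM (-0.96, adjusted p = 0.00194). Among the 294 genes higher at day 7 the median day 0 difference was 0.22 and 2 were already called, Ccl8 and Prl2c2. By the adjusted p alone 120 of the 294 were already higher at day 0 and 17 lower, beside the 10.2% of all genes that passed in either direction. A test of the difference between days, on all 24 libraries, called 574 genes whose difference moved down (4.79%) and 306 whose difference moved up (2.55%), and these held 518 of the 581 lower and 154 of the 294 higher genes. Since the change between days contains the day 7 difference that chose those genes, these 2 counts are a description and support nothing.

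Some genes differed at day 0 in another way than at day 7. Clec3b, a tetranectin expressed by fibroblasts, was at 4.2, 5.17 and 5.05 FPKM in Δpro#3 and 69.4, 78.6 and 68.5 FPKM in full-length NFIA at day 0 (-3.66, adjusted p = 3.24e-06), and the change of the difference by day 7 was 3.09 (adjusted p = 1.11e-08). Bmp4 was at 0.429, 0.277 and 0.38 FPKM against 12.8, 11.5 and 14 FPKM at day 0 (-3.33, adjusted p = 8.5e-08) with a change of 2.03 between days (adjusted p = 6.65e-09). Pdgfra changed sign, from 50, 48.1 and 51.8 FPKM against 92.5, 91 and 101 FPKM at day 0 (-0.91, adjusted p = 2.43e-06) to 1.68 at day 7. Fn1 did likewise, from -0.57 (adjusted p = 0.00013) to 1.75. Timp3, an inhibitor of matrix enzymes, was at 50, 45.7 and 47 FPKM against 211, 227 and 213 FPKM at day 0 (-2.17, adjusted p = 1.17e-09) and at 85.7, 84.8 and 77.9 FPKM against 44.3, 45.3 and 46.1 FPKM at day 7 (0.86, adjusted p = 8.89e-06). Timp3, Cebpa, Cidea, Dio2, Pecam1, Ccl8, Rgs2 and Serpina3c were chosen after their values were seen.

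**Figure D5:**
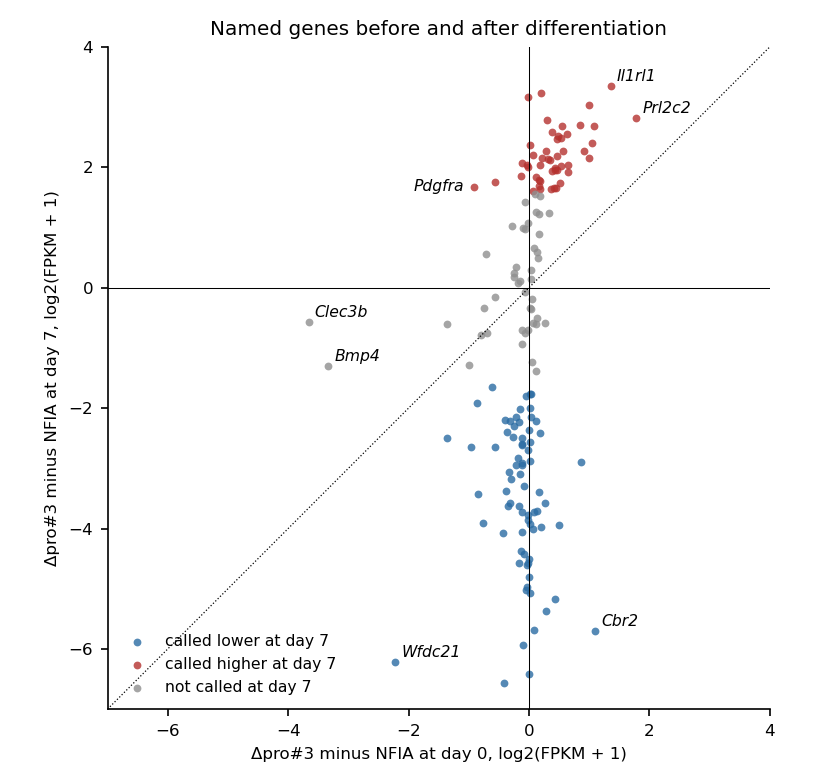
Δpro#3 minus full-length NFIA difference of the tested named genes at day 0 (x axis) and day 7 (y axis), both on the log2(FPKM + 1) scale. Blue and red points were called lower and higher at day 7, grey points were not called, and the dotted line marks equal differences. Most points lie near 0 on the x axis and are spread from -6.56 to 3.36 on the y axis, with Clec3b and Bmp4 as the points furthest to the left.

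Over the course of differentiation more genes changed in full-length NFIA than in Δpro#3. Between day 0 and day 7, 730 genes rose (6.09%) and 395 fell (3.3%) in full-length NFIA, against 144 (1.2%) and 33 (0.275%) in Δpro#3. The filter on day 7 FPKM kept genes silent at day 0 and dropped genes silent at day 7. The excess of rises over falls is therefore set in part by the filter. The genes called at day 7 were chosen on the same day 7 libraries, so that a larger change in full-length NFIA among them is largely fixed by the choice, and their counts are a description. Of the 581 lower genes 541 rose in full-length NFIA and 64 in Δpro#3. Fabp4 and Adipoq were among those that rose in both, by 9.58 and 9.51 in full-length NFIA and by 5.13 and 5.86 in Δpro#3. Cox8b rose by 6.80 in full-length NFIA with 0.38 in Δpro#3, and Scd1 rose by 5.02 with 0.79, the Δpro#3 values being below 3-fold. Of the 294 higher genes 141 fell in full-length NFIA and 5 in Δpro#3. Aebp1 started at 695, 631 and 653 FPKM in full-length NFIA and at 826, 801 and 814 FPKM in Δpro#3, and its full-length NFIA level fell by 2.91 on the log2 scale (adjusted p = 1.38e-16), beside -0.43 in Δpro#3. Gpnmb and Grem1 rose in Δpro#3, by 2.18 and 2.19, and their day 7 minus day 0 differences in full-length NFIA were -1.01 and -0.84.

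The libraries labelled Cre have no added NFIA. Beside them the 2 forms of NFIA lay on different sides for Fabp4, Thrsp and Retn. Both comparisons share the Cre libraries, so only values are given. The 581 lower and 294 higher genes were chosen on the full-length NFIA and Δpro#3 day 7 libraries. The directions of their counts against Cre are therefore largely fixed by the choice, and the counts are a description. Over all genes 269 were called higher (2.25%) and 187 lower (1.56%) in full-length NFIA than in Cre, and 4 higher (0.0334%) and 76 lower (0.634%) in Δpro#3 than in Cre. Of the 581 lower genes 250 were called higher in full-length NFIA than in Cre and 0 lower, and 72 were called lower in Δpro#3 than in Cre and 0 higher. Fabp4 was at 5365, 6611 and 2914 FPKM in Cre, against which full-length NFIA differed by 1.64 (adjusted p = 0.00138) and Δpro#3 by -2.30 (adjusted p = 0.00101). Thrsp was at 21.3, 28.7 and 7.48 FPKM in Cre, with differences of 2.56 and -2.46, and Retn at 71.3, 94.9 and 34.4 FPKM, with 2.92 and -2.45. For Cox8b, at 0.23, 0 and 0.249 FPKM in Cre, the differences were 6.59 and 0.17, with adjusted p = 0.406 for the latter. Of the 294 higher genes 147 were called lower in full-length NFIA than in Cre, and 2 were called higher in Δpro#3 than in Cre. Grem1 was at 10.6, 12.3 and 19.4 FPKM in Cre and differed by -2.05 in full-length NFIA and 1.18 in Δpro#3, and Col1a1, at 792, 776 and 921 FPKM in Cre, by -1.57 and 0.07 (adjusted p = 0.652 for the latter).

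As to limits, replicate 1 of Δpro#3 was the lowest of its group in adipocyte genes (marker sum 818 FPKM against 1887 and 2077 FPKM), and without it 857 genes were called, 558 lower and 299 higher, of which 832 were among the 875. By recovered reads replicate 3 of Δpro#3 stood furthest from its partners. The chi-square per degree of freedom was 15.1 against replicate 1 and 13.57 against replicate 2, which were 4.89 apart. Pairs of full-length NFIA libraries ran from 2.95 to 3.57. Without replicate 3 of Δpro#3, 914 genes were called, 601 lower and 313 higher, and 844 of them were among the 875. The number called depends on the pseudocount, with 1390 at 0.1 and 413 at 5 (624 and 93 of them higher). Col1a1 and Acta2 were at 1.58 and 1.53 without replicate 1 of full-length NFIA, at 1.58 and 1.54 without replicate 2 of Δpro#3, and S100a6 was at 1.58 without replicate 1 of Δpro#3, all below 3-fold.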

How the data were processed

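Polyadenylated RNA of ingSVF cells was sequenced from TruSeq Stranded mRNA libraries, in 24 libraries of 8 groups with 3 replicates each. The authors aligned reads to mm9 with STAR 2.5.3a, counted uniquely aligned reads on the matched strand and deposited FPKM per gene. Other files of the series were not used here. FPKM times gene length came out as whole reads (within 0.1 read) in 100% of values, so totals per library (11.67 to 14.62 M reads in the 6 libraries compared) could be recovered.

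Groups came from the sample titles. Genes were tested with limma 3.58.1 (R 4.3.3) on log2(FPKM + 1) with a mean-variance trend, two-sided, with Benjamini-Hochberg adjustment over all 11980 genes. The 12 libraries of a day shared 1 fit, and comparisons between days used all 24. A gene was called at an adjusted p under 0.05 and at least 3-fold on that scale, which understates changes of low genes. The text names the study's genes, the 10 genes of each direction that changed most among those with groups apart, the 5 called genes of each direction with the highest FPKM, and in each of the lists up to 4 called genes and up to 2 members that went against the list median. Genes under 200 bases and symbols that had become dates were not named. The comparison, gene lists and rules were chosen with earlier results of these data known, so counts over lists are descriptions. The fit was tested on simulated data. Alternatives were other pseudocounts, filters, scalings and thresholds, voom on the recovered reads, other sets of libraries, a replicate block and each library left out. Positions are from GENCODE vM1 on mm9. Wfdc21, Mpc1, Mpc2 and Vegfd had no position by symbol. Some genes within the naming rule are not reported here.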

Additional observations from a re-analysis of the deposited data

Results flagged for a closer look

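For 102 of 163 named genes tested the Δpro#3 minus full-length NFIA difference was not the same at day 7 as at day 0, by a test of the change itself (limma on all 24 libraries, at least 3-fold and adjusted p of at most 7.16e-06 (Pparg)). Over all genes 306 (2.55%) moved up and 574 (4.79%) down by this rule. Most named genes were chosen for a large day 7 difference, which is part of the quantity tested, so their number is a description. The values that follow are the day 7 difference minus the day 0 difference on the log2(FPKM + 1) scale.

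The difference moved down for adipocyte genes. Among regulators it moved by -1.67 for Pparg, -2.00 for Ppara, -2.58 for Ppargc1a, -3.26 for Mlxipl, -2.99 for Nr1h3, -2.96 for Rxrg, -2.69 for Srebf1 and -2.61 for Nfib. Among the genes with the largest day 7 differences it moved by -6.14 for Rbp4, -6.42 for Cox8b, -4.00 for Wfdc21, -5.83 for Ces1d, -6.80 for Cbr2, -5.75 for Ppp1r1a, -5.66 for Retn, -5.61 for Orm1, -5.08 for Ephx2 and -4.97 for Thrsp. For Cbr2 the change between days was larger than the day 7 difference, since Cbr2 was higher in Δpro#3 at day 0 (1.10, adjusted p = 0.00019). In lipid storage and handling the values were -4.45 for Fabp4, -3.85 for Fabp5, -4.56 for Cd36, -2.08 for Lpl, -3.21 for Dbi, -3.83 for Cidec, -4.81 for Pnpla3, -3.62 for Pnpla2, -3.76 for Lipe and -3.15 for G0s2. In lipid synthesis they were -4.24 for Scd1, -3.85 for Elovl3, -3.28 for Acss2, -4.92 for Gpd1, -4.49 for Pck1, -3.93 for Dgat2, -4.08 for Agpat2, -2.89 for Insig1, -2.79 for Pmvk, -2.22 for Nsdhl and -2.05 for Lss. For adipokines and hormone response they were -3.65 for Adipoq, -4.17 for Cfd, -2.57 for Angptl4, -3.94 for Slc2a4, -2.35 for Pde3b, -1.80 for Tbc1d4, -4.33 for Adrb3 and -1.89 for Prkar2b. For mitochondrial and peroxisomal genes they were -3.75 for Cox7a1, -4.42 for Acaa1b, -2.74 for Pex11a, -2.84 for Acadm, -2.65 for Acadl, -3.57 for Pcx, -2.49 for Mpc2, -2.48 for Mpc1, -2.38 for Idh3a, -2.06 for Acat1, -2.19 for Echs1, -1.92 for Bckdhb, -1.88 for Hibch, -2.36 for Cycs, -1.75 for Uqcrfs1, -1.79 for Uqcrc2 and -1.80 for Atp5g3. Further genes were Kcnk3 (-2.90), Nos3 (-4.57), Tnnc2 (-3.85), Col15a1 (-2.74) and Chrdl1 (-2.04).

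The difference moved up for matrix, precursor and signalling genes. For secreted and surface proteins it moved by 2.0 for Il1rl1, 3.03 for Grem1, 3.19 for Gpnmb, 2.04 for Slc6a17, 1.73 for Slc6a8, 1.60 for Lrrc32, 2.21 for Aqp1, 1.62 for S100a4, 2.0 for Ccl7, 1.72 for Ccl2, 1.81 for Vegfd and 1.95 for Igfbp2. For matrix genes it moved by 2.48 for Aebp1, 1.86 for Abi3bp, 2.14 for Srpx2, 2.31 for Fn1, 2.08 for Col12a1, 1.92 for Thbs2, 1.73 for Thbs1, 1.77 for Mmp14, 1.98 for Mmp11 and 2.18 for Timp2. For contractile, precursor, BMP and Wnt genes it moved by 1.85 for Cnn1, 2.04 for Ctgf, 1.94 for Ptx3, 1.59 for Axl, 2.14 for Cd9, 2.03 for Anxa3, 2.59 for Pdgfra, 3.09 for Clec3b, 2.03 for Bmp4, 2.36 for Sfrp4 and 1.99 for Sfrp1. Clec3b and Bmp4 stand apart from the rest because their difference was larger at day 0, so that the upward move brought the groups closer.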

How the results depend on the processing

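Counts of called genes depended on the pseudocount, the use of reads and the fold threshold. At day 7, where 875 genes were called, the counts were 1390 with a pseudocount of 0.1, 413 with 5, 1456 with limma voom on recovered reads, 2293 at 2-fold and 8513 with no fold threshold. At day 0 (18 called) they were 69, 4, 92, 114 and 1227 in the same order, and for the difference between days (880) 1430, 402, 1471, 2355 and 7324. For day 7 against day 0 they were 583 with a pseudocount of 5, 2492 at 2-fold and 8594 with no fold threshold in full-length NFIA (1125), and 424, 66, 512, 567 and 5121 in Δpro#3 (177). Of the day 7 calls 676 of 1456 were higher in Δpro#3 with voom, against 294 of 875. With 1 library left out in turn, the range was 850 to 919 at day 7, 17 to 21 at day 0, 844 to 916 for the difference between days, 1112 to 1141 in full-length NFIA and 172 to 205 in Δpro#3.

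The replicate numbers did not pair the libraries. Deviations of same-numbered Δpro#3 and full-length NFIA libraries at day 7 correlated at -0.0857, -0.0791 and -0.0542, and 0 of 3 libraries correlated best with their own number. A replicate block gave 874 called genes at day 7, 18 at day 0, 879 for the difference between days, 1126 in full-length NFIA and 177 in Δpro#3.

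List medians changed sign in 4 lists. The cell cycle genes were at 0.05 and at -0.06 with median-of-ratios size factors. The study genes were at 0.15 and the angiogenic genes at -0.12 when a mean of 5 FPKM was required, and the pericyte markers (-0.05, 2 genes) at 0.20 with a pseudocount of 5 and 0.99 at a mean of 5 FPKM. No endothelial or Schwann marker was left at that mean, so their medians have no value there. Of the named genes' values, 24 lost and 12 gained the call under an alternative other than leaving out a library, while 1775 kept their side of the threshold, and none changed sign while called. With a pseudocount of 5 the calls lost were those of Nfib, Ppara, Ppargc1a, Rxrg, Tbc1d4, Hk1, Mmp11, Cnn1, Acta2, Dlc1, Pdgfra, Chrdl1, Tgfbr2, Sfrp4 and Cxcl5 among the genes named, and with voom Metrnl, Zic1, Pde4d, Bcat1, Bmp4, Wnt11 and Igfbp5 gained one. Depth limited genes such as Ucp1 and Cidea, with under 30 reads in each of the 6 libraries.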
